A study of Mus musculus with 6 samples.

Results

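The genes described here are 26 mouse genes that build or anchor inhibitory neurotransmitter receptors: 15 subunits of GABA-A receptors, both subunits of the GABA-B receptor, 4 glycine receptor subunits and 5 proteins that organise or assist these receptors at the membrane. They were named by symbol for these roles, with earlier results of these data known, and each of the 26 had a row with exactly 1 gene symbol among the 19938 genes of the table. For Gabrb2, which had 3 rows, the brightest row was used.

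The cultures came from the brain of OF1 mouse embryos at embryonic day 17, and fetal calf serum let them differentiate into a mix of neurons and glia. In serum-free medium, without added growth factors, 3 cultures received 10 nM of 1,25-dihydroxyvitamin D3 (1,25D), the hormonal form of vitamin D, and 3 control cultures received vehicle by the treatment protocol, though their sample labels call them untreated; how long the treatment lasted is not stated in the labels. Both groups share the strain, the dissociation of embryonic brain and the culture steps, and the labels name no engineered allele. Total RNA was labelled and hybridised to Affymetrix arrays, 1 array per culture, and the labels call the 3 arrays of a group biological replicates without saying what a replicate number stands for. Map2, a neuronal cytoskeletal protein, stood at a log2 intensity of 10.65 ± 0.47 in 1,25D cultures and 10.94 ± 0.30 in control cultures (SD, n = 3 each), and Gfap, the astrocyte filament protein, at 11.52 ± 0.48 and 11.61 ± 0.52. Tubb3, a tubulin of neurons, lay below the middle of all genes, at 7.36 ± 0.57 in 1,25D cultures and 7.41 ± 0.34 in control cultures. Its control mean was at percentile 38.6 of all genes. Over genes, the median was 7.91 on the lowest array and 7.98 on the highest. Such bulk values cannot tell fewer cells of a type from less RNA per cell.

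GABA-A receptors are chloride channels of 5 subunits, and the subunits chosen set where a receptor sits, how strongly it binds GABA and which drugs act on it. Receptors with a gamma subunit gather at synapses and carry fast inhibition, while those with the delta subunit, or with alpha 5, lie mostly outside synapses and carry a tonic current. Glycine receptors are related chloride channels, used most in spinal cord and brainstem, and GABA-B receptors act through G proteins. In the postsynaptic membrane gephyrin forms the lattice that holds glycine receptors and many GABA-A receptors, next to the adhesion protein neuroligin-2.

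1,25D acts through a nuclear receptor that binds, with a retinoid X receptor, to pairs of short hexamer motifs in DNA. The promoter windows of 3 of the genes are shown because these genes carry the measurements described below: Gabrb1 was the brightest of the 26, Gabra5 differed most between replicate numbers, and Shisa7 was the gene whose treated and control arrays did not overlap. Each window runs from 250 bases before to 50 bases after an annotated start (RefSeq, GRCm38.p6) and is written 5′ to 3′ on the strand of the gene, with hexamer matches on either strand in capitals. On both strands, AGGTCA was searched as the hexamer together with AGTTCA as a variant of it, with GGGTCA as a further variant, and with GGTTCA as the last.
Gabrb1, chr5:71657671-71657970, plus strand: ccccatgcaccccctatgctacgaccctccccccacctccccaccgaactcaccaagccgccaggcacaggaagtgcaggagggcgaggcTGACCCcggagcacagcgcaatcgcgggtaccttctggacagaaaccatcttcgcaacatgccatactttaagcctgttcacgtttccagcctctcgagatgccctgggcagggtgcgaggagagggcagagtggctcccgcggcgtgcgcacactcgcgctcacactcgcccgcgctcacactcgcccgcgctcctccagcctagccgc
Gabra5, chr7:57510010-57510309, minus strand: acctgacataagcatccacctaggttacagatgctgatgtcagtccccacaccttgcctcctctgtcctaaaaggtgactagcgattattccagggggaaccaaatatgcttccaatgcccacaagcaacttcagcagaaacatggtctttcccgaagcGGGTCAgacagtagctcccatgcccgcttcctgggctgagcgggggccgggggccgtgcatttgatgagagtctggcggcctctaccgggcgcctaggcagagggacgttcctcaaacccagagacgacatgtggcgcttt
Shisa7, chr7:4844647-4844946, minus strand: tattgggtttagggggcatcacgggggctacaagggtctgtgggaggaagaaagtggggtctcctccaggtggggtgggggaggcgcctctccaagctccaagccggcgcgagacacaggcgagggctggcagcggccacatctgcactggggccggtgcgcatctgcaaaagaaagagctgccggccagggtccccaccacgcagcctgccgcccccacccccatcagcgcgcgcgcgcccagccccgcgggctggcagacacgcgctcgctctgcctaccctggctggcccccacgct
The table held 28 windows for 24 of the 26 genes. At least 1 hexamer was found in 12 of the 28 windows, which belong to 11 genes, and in 43.7% of all 32851 windows. Taken singly, AGGTCA was in 0 of the 28 windows and 16.3% of all windows, and AGTTCA in 6 and 14%. GGGTCA was in 5 of the 28 and 13.7% of all windows, and GGTTCA in 5 and 10.4%. No window of these genes held a direct repeat of those hexamers with 3 bases between them, and 0.0396% of all windows did. The Shisa7 window held no hexamer match and had a GC content of 70.3%, and those of Gabrb1 and Gabra5 held 1 each with a GC content of 66.0% and 56.7%. The median GC content was 58.8% over the 28 windows and 52.7% over all windows. Gabrb1 has a second window in the table, chr5:71699682-71699981, not printed, with no hexamer match and a GC content of 50.3%. A match is a description of the letters alone.

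None of the 26 genes passed the test for a difference between 1,25D and control cultures: 0 were called higher and 0 lower (limma, adjusted p under 0.05, Benjamini-Hochberg over all genes), with 0.0251% of all genes called higher and 0.00% lower. With the replicate number as a block the count was again 0 higher and 0 lower, against 0.0903% and 0.00% of all genes. At an unadjusted p under 0.05 there was 1 gene, Shisa7, in either fit, against 1.48% (no block) and 5.78% (block) of all genes. The smallest adjusted p among the 26 was 0.9998 without the block and 0.83 with it. The mean was higher in 1,25D cultures for 14 of the genes and lower for 12, with a median log2 difference of 0.003, against 0.0074 over all genes, of which 53.0% had a positive difference. Under another scaling or with array weights 6 of these signs turned, all of differences smaller than their SE. The 95% interval of the difference lay within 1 log2 unit of 0 for 22 of the 26 genes without the block, against 98% of all genes. The 4 wider ones were Gabrb1, Gabrg1, Gabrg3 and Gabra5. With the block the interval lay within 1 log2 unit for 25 of the 26, all but Gabrg3, against 99.4% of all genes. With 3 arrays against 3, the smallest two-sided p that exact permutation of 1 gene's values allows is 0.1.

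**Figure D1:**
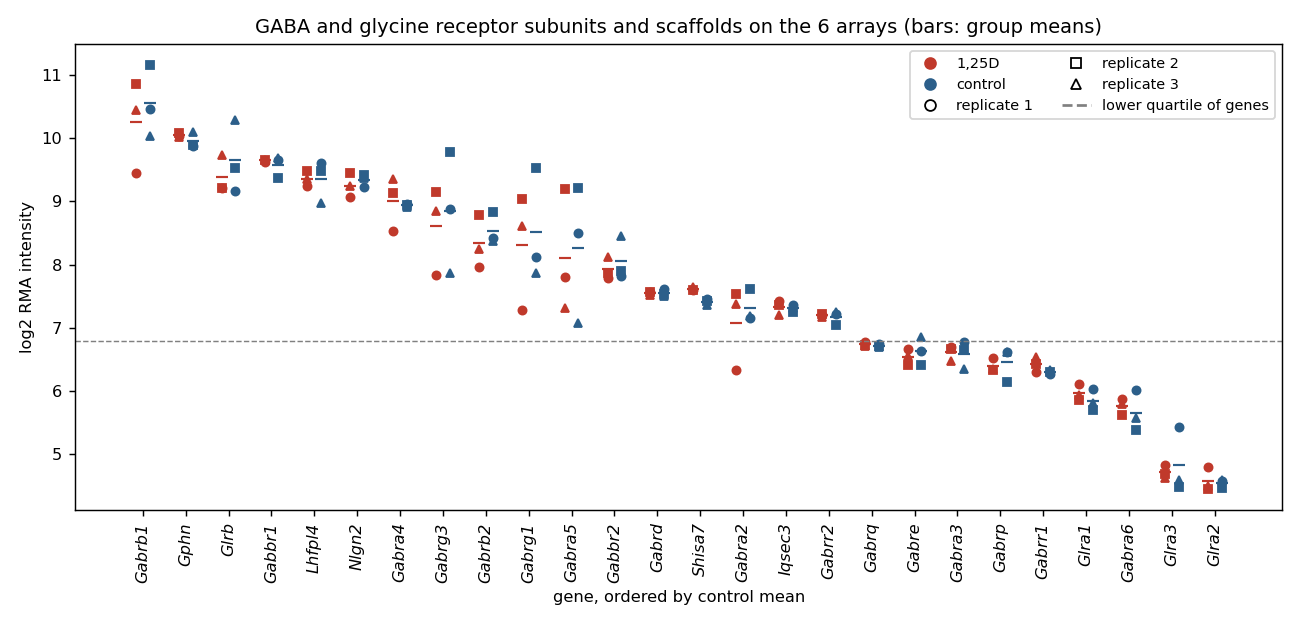
Log2 RMA intensity (vertical axis) of the 26 genes on each of the 6 arrays, 1,25D in red left of control in blue, with the replicate number as the symbol, bars for group means and a dashed line at the lower quartile of all genes (6.79). Points of the 2 colours intermix for nearly every gene, and the widest scatter belongs to Gabra5, Gabrg1, Gabrg3 and Gabrb1.

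By control signal the 26 genes ran from a mean log2 intensity of 4.54 to 10.55, or from percentile 2.09 to 91.7 of all genes. Probe sets differ in how brightly they report a transcript, so the order is one of signal and not of transcript number. Gabrb1 led with a control mean of 10.55, at percentile 91.7 of all genes, followed by Gphn (9.96), Glrb (9.66), Gabbr1 (9.57), Lhfpl4 (9.36), Nlgn2 (9.34), Gabra4 (8.94), Gabrg3 (8.84), Gabrb2 (8.54), Gabrg1 (8.51), Gabra5 (8.27) and Gabbr2 (8.05). Gabrd (7.55), Shisa7 (7.41), Gabra2 (7.32), Iqsec3 (7.31) and Gabrr2 (7.17) lay lower. The remaining 9 had a mean over the 6 arrays under 6.79, the lower quartile of all genes: Gabrq (6.72), Gabre (6.63), Gabra3 (6.59), Gabrp (6.45), Gabrr1 (6.30), Glra1 (5.84), Gabra6 (5.65), Glra3 (4.83) and Glra2 (4.54). These dim genes include all 3 glycine receptor alpha subunits among the 26, the epsilon and theta subunits, the pi subunit, known mainly from tissues outside the brain, and the alpha 6 subunit, known from cerebellar granule cells. The deposited values hold no detection call, and differences of dim genes can be compressed.

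Among the alpha subunits, Gabra4, which joins the delta subunit in receptors outside synapses, had log2 intensities of 8.53, 9.13 and 9.36 in 1,25D replicates 1, 2 and 3, against 8.95, 8.95 and 8.92 in the controls. The controls lay within 0.04 of each other and inside the range of the treated arrays, and the difference was 0.07 ± 0.20 (SE). Gabra5 stood at 7.81, 9.19 and 7.32 in 1,25D cultures, against 8.51, 9.22 and 7.08 in control cultures. Replicate 2 was high and replicate 3 low in both groups, and the difference of -0.16 ± 0.61 (SE without the block) was small beside that spread. With the block it was -0.16 ± 0.17 (SE). Gabra2, an alpha subunit of synapses on cell bodies and axon initial segments, had 6.33, 7.53 and 7.37 in 1,25D cultures and 7.15, 7.61 and 7.18 in control cultures. The first treated array was the lowest of the 6, and the difference was -0.24 ± 0.30 (SE). The dim Gabra3 and Gabra6 had differences of 0.02 ± 0.13 and 0.11 ± 0.17 (SE).

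Beta subunits form the GABA site together with alpha subunits. Gabrb1 had 9.44, 10.86 and 10.46 in 1,25D replicates 1, 2 and 3, and 10.47, 11.16 and 10.03 in the controls. Treated replicate 1 was the lowest and control replicate 2 the highest of the 6 arrays, the groups overlapped, and the difference was -0.30 ± 0.39 (SE) without and -0.30 ± 0.24 (SE) with the block. Gabrb2 had 7.97, 8.79 and 8.25 in 1,25D cultures, against 8.41, 8.83 and 8.38 in controls. Each treated array was below the control of its own number, by -0.45, -0.03 and -0.13 in replicates 1, 2 and 3, yet the groups overlapped. The difference was -0.20 ± 0.22 (SE) without the block and -0.20 ± 0.10 (SE) with it, where the adjusted p was 0.89 (limma). With 1 array or 1 replicate number left out, that difference lay between -0.43 and -0.02.

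The gamma subunits, which draw receptors to synapses, varied more. Gabrg1, a gamma subunit also known from glia, had 7.28, 9.03 and 8.60 in 1,25D cultures and 8.13, 9.53 and 7.87 in control cultures. Gabrg3 had 7.84, 9.15 and 8.85 in 1,25D cultures and 8.88, 9.78 and 7.87 in control cultures. Both were lower with 1,25D in replicates 1 and 2 and higher in replicate 3. Their differences were -0.21 ± 0.54 and -0.23 ± 0.50 (SE) without the block, and the SE with it was 0.28 and 0.35. For Gabrg3 the 95% interval ran from -1.38 to 0.92 without the block and from -1.07 to 0.61 with it. A fall of 1 log2 unit lay inside both.

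The delta subunit, by contrast, was nearly flat: Gabrd had 7.57, 7.57 and 7.52 in 1,25D cultures and 7.62, 7.54 and 7.49 in control cultures. Its difference was 0.0008 ± 0.09 (SE), with a 95% interval from -0.21 to 0.21. The theta subunit Gabrq (difference 0.02 ± 0.09), the epsilon subunit Gabre (-0.09 ± 0.14) and the pi subunit Gabrp (-0.06 ± 0.15) did not pass the test either. The rho subunits form receptors best known from the retina. Gabrr1 had 6.30, 6.43 and 6.53 in 1,25D cultures and 6.27, 6.30 and 6.33 in controls, a difference of 0.12 ± 0.10 (SE), and Gabrr2 had a difference of 0.02 ± 0.10 (SE). The treated arrays of Gabrr1 were each above the control of the same number, and the lowest of them lay within the control range.

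The GABA-B receptor works only as a pair of Gabbr1, which binds GABA, and Gabbr2, which couples to the G protein. Gabbr1 had 9.63, 9.66 and 9.66 in 1,25D cultures and 9.66, 9.38 and 9.68 in controls. The 5 arrays other than control replicate 2 lay within 0.06 of each other, and the difference was 0.08 ± 0.11 (SE). Gabbr2 had 7.79, 7.87 and 8.11 in 1,25D cultures, against 7.82, 7.90 and 8.45 in controls. Its treated arrays were lower in every replicate number, by -0.03, -0.03 and -0.34, with overlapping groups. The difference was -0.13 ± 0.18 (SE) without the block and -0.13 ± 0.09 (SE) with it.

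Of the glycine receptor genes only Glrb, whose product binds gephyrin, was above the lower quartile of genes. Glrb had 9.21, 9.21 and 9.74 in 1,25D replicates 1, 2 and 3, and 9.16, 9.54 and 10.29 in the controls. Replicate 3 was the highest array of both groups, and the 2 ranges overlapped. The difference was -0.28 ± 0.28 (SE) without the block and -0.28 ± 0.12 (SE) with it, and the adjusted p with the block was 0.87 (limma). Glra1, the main alpha subunit of adult glycine receptors in the spinal cord, had 6.11, 5.85 and 5.94 in 1,25D cultures and 6.03, 5.69 and 5.80 in controls, a difference of 0.12 ± 0.12 (SE). It was higher with 1,25D in each replicate number by 0.07 to 0.16. Glra2, the embryonic alpha subunit, and Glra3 were the dimmest of the 26, with differences of 0.04 ± 0.12 and -0.12 ± 0.24 (SE).

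Among the scaffolds, Gphn, which encodes gephyrin, had 10.03, 10.09 and 10.02 in 1,25D cultures and 9.89, 9.89 and 10.11 in controls. Its difference was 0.09 ± 0.10 (SE), with a 95% interval from -0.15 to 0.32. Nlgn2, neuroligin-2, had 9.06, 9.45 and 9.24 in 1,25D cultures, against 9.22, 9.42 and 9.37 in controls, a difference of -0.08 ± 0.12 (SE). Neither scaffold's arrays separated by group. Lhfpl4, which links GABA-A receptors to neuroligin-2, had 9.24, 9.49 and 9.36 in 1,25D cultures and 9.60, 9.49 and 8.98 in controls, a difference of 0.0057 ± 0.17 (SE). Iqsec3, an exchange factor for Arf proteins that binds gephyrin, had 7.43, 7.36 and 7.20 in 1,25D cultures and 7.36, 7.25 and 7.31 in controls, a difference of 0.02 ± 0.10 (SE). The range of the treated arrays took in the control range for Iqsec3, and the reverse held for Lhfpl4.

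Shisa7 encodes an auxiliary protein of GABA-A receptors that affects their trafficking and kinetics. It had 7.60, 7.60 and 7.64 in 1,25D cultures, against 7.45, 7.42 and 7.36 in control cultures. All 3 treated arrays lay above all 3 controls, which was so for 1 of the 26 genes and for 2.63% of all genes; no gene of the 26 had its groups apart in the other direction, against 1.52% of all genes (4.15% in either direction). The mean was 1.15-fold higher, with a log2 difference of 0.21 ± 0.09 (SE), and 0.15, 0.18 and 0.29 in replicates 1, 2 and 3. Its adjusted p was 0.9998 without and 0.83 with the block (limma), so the difference did not pass over all genes. Including Shisa7, 4 of the 26 genes were higher with 1,25D in every replicate number (with Gabrr1, Glra1 and Gabrq, whose mean difference turned below 0 after quantile normalisation and median centring), where 14.8% of all genes were, and 2 were lower in every replicate number (Gabrb2 and Gabbr2), where 11.0% of all genes were.

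**Figure D2:**
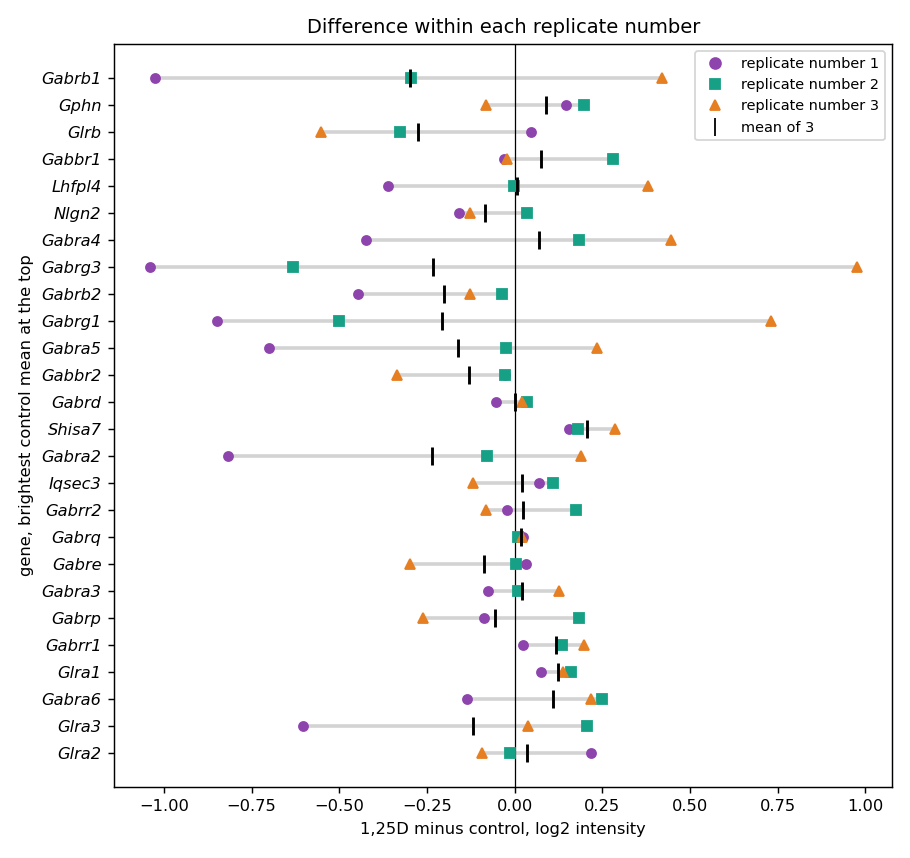
Difference of 1,25D minus control in log2 intensity (horizontal axis) within each replicate number, for the 26 genes ordered by control mean, with a black tick at the mean of 3. Gabrb1, Gabrg3, Gabrg1, Gabra5, Gabra2 and Gabra4 lie below 0 in replicate 1 and above 0 in replicate 3, while the 3 points of Shisa7 lie close together at 0.15 to 0.29.

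Arrays of the same number resembled each other across all genes: deviations from the group means correlated at 0.51, 0.65 and 0.46 in replicates 1, 2 and 3. The range of the 3 replicate-number means also takes in variation that 1 group shows alone, as in Gabra4, whose controls were flat. It was larger than the mean difference in 25 of the 26 genes and in 90.6% of all genes. The range exceeded 1 log2 unit for 4 of the 26 genes, against 1.16% of all genes. It was 2.01 for Gabra5, 1.58 for Gabrg1, 1.10 for Gabrg3 and 1.05 for Gabrb1, at percentiles 99.9, 99.8, 99.2 and 99.0 of all genes. It was 0.83 for Glrb and Gabra2 and 0.62 for Gabrb2, against 0.11 for Gphn, 0.09 for Gabrd and 0.03 for Shisa7. Receptor subunits thus held both wide and narrow ranges, and the scaffolds Gphn, Nlgn2, Iqsec3 and Lhfpl4 lay between 0.11 and 0.32.

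**Figure D3:**
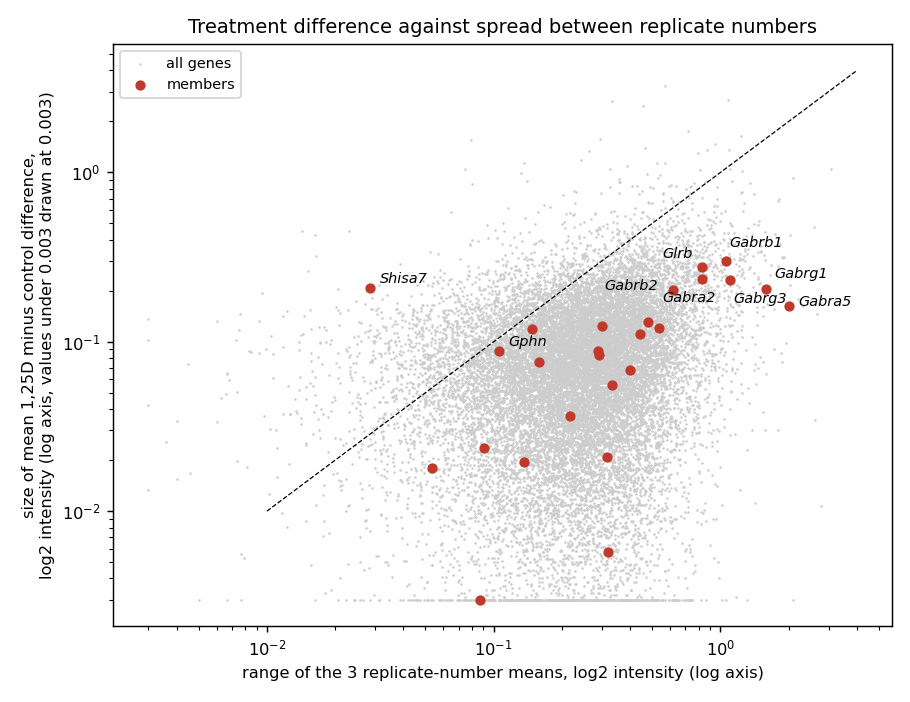
Size of the mean 1,25D minus control difference (vertical log axis) against the range of the 3 replicate-number means (horizontal log axis), both in log2 intensity, for all 19938 genes in grey and the 26 genes in red; the dashed line marks equality. Shisa7 is the 1 red point above the line, and Gabra5, at a range of 2.01, lies farthest to the right.

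A set of 6 subunits, grouped after the values were seen, consists of neighbouring genes. It includes Gabra4, which varied less than Glrb, Gabrb2 and Glra3 outside the set. In the RefSeq annotation Gabrg1 and Gabra2 are adjacent on chromosome 5, as are Gabra4 and Gabrb1, with 1 protein-coding gene between the 2 pairs, and Gabrg3 and Gabra5 are adjacent on chromosome 7. All 6 were lower with 1,25D in replicate 1, by -1.04 to -0.42, and higher in replicate 3, by 0.19 to 0.98. Their median difference was -0.83, -0.19 and 0.43 in replicates 1, 2 and 3. The same signs, below 0 in replicate 1 and above 0 in replicate 3, were seen in 11 of the 26 genes, the others being Lhfpl4, Gabrd, Gabra3, Gabra6 and Glra3, and in 24.4% of all genes. With replicate 1 at or below -0.4, a limit just above the -0.42 of Gabra4, there were 7 of the 26, against 3.13% of all genes. These were the 6 and the dim Glra3, on chromosome 8. Not every cluster had the signs in all its genes. Gabrb2 and Gabra6, adjacent on chromosome 11, had differences of -0.45, -0.03 and -0.13 and of -0.13, 0.25 and 0.22 in replicates 1, 2 and 3. Gabre, Gabra3 and Gabrq on chromosome X had differences between -0.30 and 0.13 in any replicate number. Those of Gabrr2 and Gabrr1, adjacent on chromosome 4, lay between -0.08 and 0.20.

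Markers of ependymal cells, the ciliated lining of the ventricles, had the same signs, with a median difference of -0.84, -0.25 and 0.37 over 6 genes. Their median level was 8.22, 8.58 and 8.55 in 1,25D replicates 1, 2 and 3, against 9.06, 8.92 and 8.21 in the controls. The median difference of 14 neuron markers was -0.09, -0.04 and 0.12, with median levels between 7.53 and 8.33 in 1,25D cultures and between 7.76 and 8.20 in control cultures. That of 9 markers of the oligodendrocyte lineage was -0.27, -0.09 and 0.11, that of 8 neural progenitor markers -0.18, -0.04 and 0.12, and that of 10 astrocyte markers -0.23, 0.03 and -0.08. So 4 of the 9 marker lists had the signs of the 6 subunits, the ependymal one with the widest differences. Of the pathway lists described below, those of postsynaptic organisers, interneuron genes and chloride transport also had these signs. Their median differences were -0.10, -0.08 and -0.02 in replicate 1 and 0.09, 0.05 and 0.10 in replicate 3. The other pathway lists did not have these signs. Whether the cell content of the cultures had a part in the values of these 6 subunits was not tested.

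**Figure D4:**
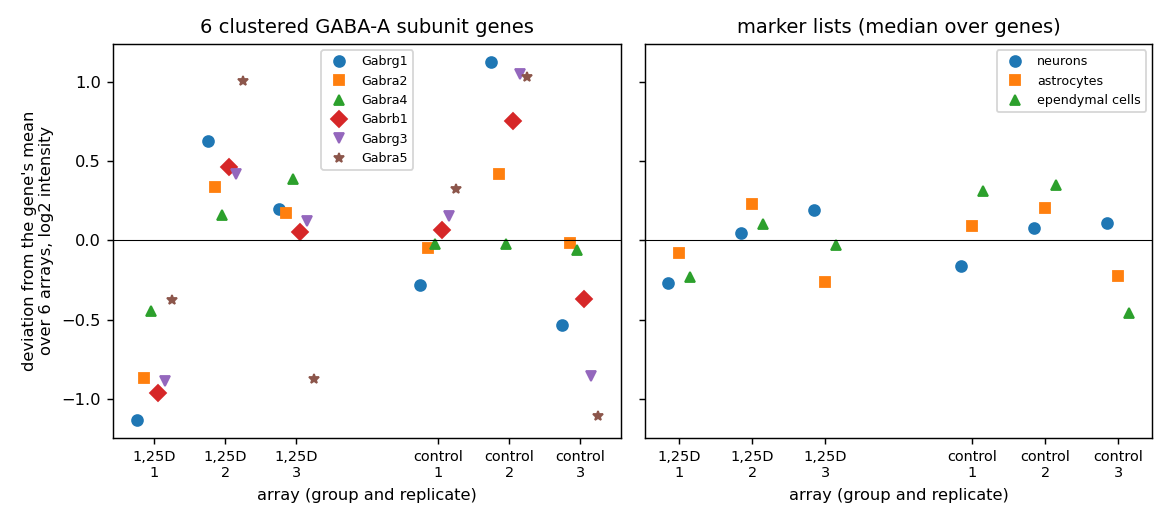
Deviation of each array from the mean over 6 arrays, in log2 intensity, for 6 GABA-A subunit genes of the clusters on chromosomes 5 and 7 (left) and as a median over 3 marker lists (right), with 1,25D arrays left of control arrays. 1,25D replicate 1 is the lowest array of 5 of the 6 genes; control replicate 3 is the lowest for Gabra5 and for the ependymal list.

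The partners of these receptors gave 1 gene past the threshold. The 8 lists took in genes for GABA and glycine handling, chloride transport, receptor trafficking, GABA-B effectors, postsynaptic organisers, interneuron identity and neurosteroids. In the unblocked fit 0 of their genes passed, where 0.0251% of all genes did. In the blocked fit 1 gene passed, against 0.0903% of all genes. That gene was Slc6a11, a GABA transporter of astrocytes, at 9.52, 9.97 and 8.60 in 1,25D cultures and 8.63, 9.10 and 7.77 in control cultures. It rose by 0.90, 0.87 and 0.83 in the 3 replicate numbers (adjusted p 0.024 with the block and 0.9998 without, limma), and was 1 of the 8 measured genes of GABA synthesis, loading, uptake and breakdown, whose median difference was 0.07.

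Of 11 measured chloride transport genes 0 passed. Slc4a10, a sodium-driven chloride bicarbonate exchanger of neurons, had 7.75, 7.33 and 7.15 in 1,25D cultures and 7.03, 6.91 and 6.67 in controls. It was the only gene of the 11 whose groups did not overlap, against 4.15% of all genes. Its difference was 0.54 ± 0.17 (SE without the block), with an adjusted p of 0.9998 without and 0.23 with the block (limma). Slc12a4, a potassium chloride cotransporter, had a difference of 0.39 ± 0.19 (SE). Of 19 measured interneuron genes 0 passed. Nos1, the neuronal nitric oxide synthase, had 8.56, 8.04 and 7.57 in 1,25D cultures and 7.39, 7.11 and 7.19 in control cultures. It was the only gene of the 19 whose groups did not overlap, against the same 4.15% of all genes. Its difference was 0.83 ± 0.23 (SE without the block), with an adjusted p of 0.9998 without and 0.28 with the block (limma). Vip, an interneuron peptide, had a difference of 0.17 ± 0.14 (SE) at a dim level.

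Of 11 measured GABA-B auxiliary and effector genes 0 passed. Kctd16, an auxiliary subunit of the GABA-B receptor, had 7.24, 7.23 and 7.27 in 1,25D cultures and 7.13, 6.90 and 6.98 in controls, with a difference of 0.24 ± 0.10 (SE). It was the only gene of the 11 whose groups did not overlap, against 4.15% of all genes. Gnao1, the G protein subunit to which neuronal GABA-B receptors couple, had a difference of -0.15 ± 0.18 (SE). In the remaining 4 lists 0 genes passed in either fit, and the smallest p-values without the block were those of Shmt1 (0.16 ± 0.10) and Gldc (0.23 ± 0.16) in glycine metabolism, Arfgef2 (0.12 ± 0.14) and Gabarapl2 (0.08 ± 0.11) in trafficking, Ablim1 (0.19 ± 0.12) and Mdga1 (-0.19 ± 0.18) among organisers, and Star (0.17 ± 0.13) and Hsd3b1 (0.10 ± 0.10) in steroid synthesis (SE).

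Genes outside that rule are named here after their values were seen. With the block, 1 gene of the glycine list and 1 of the steroid list had an unadjusted p under 0.05. Slc6a9, a glycine transporter of glia, had a difference of 0.23 ± 0.08 (SE with the block, adjusted p 0.80, limma), and Akr1c14, an enzyme of neurosteroid synthesis, one of -0.32 ± 0.08 (SE with the block, adjusted p 0.63, limma). The interneuron gene Pvalb, which encodes parvalbumin, had -0.47 ± 0.15 (SE with the block, adjusted p 0.75, limma). None of these passed over all genes. Slc6a20a, of the glycine list, had 7.71, 7.71 and 7.83 in 1,25D cultures and 7.67, 7.61 and 7.66 in control cultures, a difference of 0.10 ± 0.09 (SE without the block). It was the only gene of the 8 measured in that list whose groups did not overlap, against 4.15% of all genes. Mdga2 had the largest difference among the organisers, -0.25 ± 0.28 (SE without the block), with overlapping groups.

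Marker lists of 9 cell classes held no gene past the threshold in either fit, where 0.0251% (no block) and 0.0903% (block) of all genes passed. Groups did not overlap for the neuron marker Rbfox3 (lower), the microglial marker Cx3cr1 and the meningeal marker Col1a1 (both higher). Each was the only such gene of its list, and the other marker lists had none, against 4.15% of all genes. By mean, 7 of the 14 neuron markers were higher in treated cultures and 7 lower, with a median difference of -0.012. Of the 10 astrocyte markers, 1 was higher and 9 lower (median -0.069). Counts higher and lower were 4 and 2 for excitatory neurons, 3 and 6 for the oligodendrocyte lineage, and 7 and 1 for microglia. They were 5 and 3 for endothelial cells and pericytes, 6 and 1 for meningeal fibroblasts, 2 and 6 for progenitors, and 1 and 5 for ependymal cells. The smallest p-values without the block belonged to Rbfox3 (-0.34 ± 0.14) and Map2 (-0.29 ± 0.25) for neurons, Slc17a7 (0.07 ± 0.12) and Neurod6 (0.07 ± 0.16) for excitatory neurons, Aldh1l1 (-0.27 ± 0.15) and Aqp4 (-0.23 ± 0.27) for astrocytes, and Olig1 (-0.28 ± 0.31) and Sox10 (0.08 ± 0.10) for the oligodendrocyte lineage. In the other classes they were Cx3cr1 (0.19 ± 0.09) and Aif1 (0.12 ± 0.10), Pdgfrb (0.48 ± 0.20) and Cdh5 (0.17 ± 0.10), Col1a1 (0.42 ± 0.18) and Igf2 (0.14 ± 0.11), Mki67 (-0.22 ± 0.16) and Vim (-0.07 ± 0.09), and Tekt1 (-0.30 ± 0.27) and Dnah5 (-0.34 ± 0.31), each a log2 difference with its SE.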

How the data were processed

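The deposited values are intensities which the authors summarised per transcript cluster by RMA; the submitters' processing notes name Affymetrix Expression Console as the tool, without version or filter. The intensity values are linear in the deposited table (8.05 to 22019), so log2 was taken. Of 35556 rows, 21789 had 1 symbol in GEO's platform annotation, 1621 several and 12146 none here; the brightest row stood for a gene with several, which left 19938 genes. Groups and replicate numbers came from the sample titles. The comparison, 1,25D minus control, was fitted to all genes with limma 3.58.1 in R 4.3.3 (lmFit, eBayes without trend), with Benjamini-Hochberg adjustment at 0.05 and no filter on dim genes; the code was tested on simulated data. SE and 95% intervals are the moderated ones, from the fit without the block unless the block is named. As equal replicate numbers correlated above 0.1 in each of the 3 pairs, on which the labels are silent, a second fit takes the number as a block. The labels call the replicates biological without saying whether they came from separate dissections, so p-values cover only the spread among these 6 arrays. The members and lists were chosen with earlier results of these data known. All 26 members are named; values per array go to those smallest in p in either fit, the brightest, those without overlap, and the GABA-B, glycine receptor and scaffold genes above the lower quartile; the other members with values per array were chosen after their values were seen. From each of 17 lists (8 pathway, 9 marker, 174 measured genes) the members past the threshold, or else the 2 with the smallest p, are named. Alternatives changed the normalisation, filter, row choice, variance model and arrays. For arrays the number of replicates limits the precision. Promoter windows are RefSeq's (GRCm38.p6); no build is named for the array values.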

Additional observations from a re-analysis of the deposited data

How the results depend on the processing

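The count of called genes among the 26 stayed at 0 in each of the 19 alternatives, where the smallest adjusted p of any member was 0.073 (Gabrg3 with the replicate block and without replicate 3, from 2 pairs). Over all genes 5 were called, against 18 with the replicate block, 25 with the replicate block and quantile normalisation, and 0 both over all rows of the table and without moderation; with arrays left out the count lay between 0 and 45. Slc6a11 passed with the replicate block, also with quantile normalisation, and without replicate 1 or 3 but not without replicate 2 (adjusted p 0.53), and Nos1 passed in the blocked fit without replicate 3 (adjusted p 0.030). The block changed no other call named here. With all 6 arrays kept, the sign turned for 6 of the 26 genes, each with a difference under its SE: after quantile normalisation Gabrd -0.021, Iqsec3 -0.0056, Gabrr2 -0.0054, Gabrq -0.016, Gabra3 -0.0076, with the same values when the replicate block was added; after median centring Lhfpl4 -0.017, Gabrd -0.022, Iqsec3 -0.0032, Gabrq -0.0049, Gabra3 -0.0021; with array weights Lhfpl4 -0.060, Gabrd -0.0060, Gabra3 -0.011. The fit without the dimmest 25% of genes gave no value for dim genes. Over all alternatives the sign of 21 of the 26 turned at least once, and Shisa7, Gabrb2, Gphn, Gabrr1 and Glra1 kept theirs, with leave-out ranges of 0.17 to 0.23 for Shisa7, -0.43 to -0.019 for Gabrb2, 0.033 to 0.17 for Gphn, 0.063 to 0.18 for Gabrr1 and 0.047 to 0.22 for Glra1; Map2 ranged from -0.44 to -0.019 and Slc6a11 from 0.50 to 1.25. With 1 array or 1 replicate number left out, the genes whose sign turned, with 9 partner and marker genes at the end, had ranges of the log2 difference of Gabrb1 -0.66 to 0.11; Glrb -0.53 to 0.037; Gabbr1 -0.026 to 0.13; Lhfpl4 -0.18 to 0.19; Nlgn2 -0.18 to 0.011; Gabra4 -0.12 to 0.31; Gabrg3 -0.84 to 0.23; Gabrg1 -0.67 to 0.31; Gabra5 -0.76 to 0.31; Gabbr2 -0.25 to 0.067, Gabrd -0.027 to 0.035, Gabra2 -0.46 to 0.14, Iqsec3 -0.030 to 0.089, Gabrr2 -0.052 to 0.076, Gabre -0.20 to 0.021, Gabra3 -0.099 to 0.11, Gabrp -0.21 to 0.048, Gabra6 -0.029 to 0.29, Glra3 -0.29 to 0.18, Glra2 -0.069 to 0.10, Arfgef2 -0.0013 to 0.27, Gnao1 -0.28 to 0.00070, Mdga1 -0.34 to 0.0095, Slc17a7 -0.045 to 0.19, Neurod6 -0.048 to 0.19, Olig1 -0.53 to 0.0030, Dnah5 -0.76 to 0.061, Slc6a9 -0.037 to 0.47, Akr1c14 -0.81 to 0.21. Without 1,25D replicate 1 the difference was 0.31 for Gabrg1, 0.14 for Gabra2, 0.31 for Gabra4, 0.11 for Gabrb1, 0.15 for Gabrg3 and -0.015 for Gabra5, above 0 in 5 of the 6, and without control replicate 3 it was -0.53 for Gabrg1, -0.30 for Gabra2, 0.057 for Gabra4, -0.56 for Gabrb1, -0.72 for Gabrg3 and -0.76 for Gabra5. The cause was not tested.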

Other observations

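Gabrb2 had 3 rows on the array, and the 2 that were not used showed the same direction in every replicate number. Their differences were -0.61, -0.55 and -0.28 in one row and -0.23, -0.36 and -0.10 in the other, against -0.45, -0.03 and -0.13 in the brightest row. The 3 rows come from the same hybridisations and are no further replicates. The mean difference was -0.48 and -0.23 in the unused rows and -0.20 in the brightest one, and with the rows averaged the gene did not pass either.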
